A study of Homo sapiens with 24 samples.

Results

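U2OS cells given an siRNA whose label names the long isoform of PAN3 were set against U2OS cells that had received a control siRNA, over 6 times of actinomycin D. The comparison used 12 of the 24 libraries of the study, 6 from the long-labelled series and 6 from the control series, which were chosen by their labels and paired by time. The times were 0, 0.5, 1, 2, 4 and 6 h. U2OS is an established human osteosarcoma line, and actinomycin D blocks transcription, so that an RNA then falls as fast as it is degraded. All series were sampled in the same way: the siRNA was delivered by lipid transfection and the RNA of the cytoplasm was purified on columns. The other 12 libraries came from cells given an siRNA labelled for the short isoform of PAN3 or both siRNAs together, and they served for the spread of the fit and for a direct comparison with the long-labelled series. The design asks how the PAN3 isoforms bear on mRNA turnover.

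PAN3 is the adaptor subunit of the PAN2-PAN3 deadenylase. PAN2 is the nuclease, and PAN3 brings it to poly(A)-binding protein and to the GW182 proteins of the microRNA pathway. PAN2-PAN3 trims long poly(A) tails, the CCR4-NOT complex shortens them further, and the transcript is then decapped and degraded from its 5′ end or is taken up by the exosome from its 3′ end.

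Each siRNA and time had 1 library, and no label says that the times of a series came from separate transfections. A p-value therefore measures the scatter of the time points about the fitted courses of all 4 series, and the siRNA and the transfection it came in cannot be told apart. The authors deposited FPKM values, which are fragments scaled to transcript length and to the mapped fragments of the library, and the depth of a library is unknown from them. Summed FPKM ran from 334602 to 377704 in the long-labelled libraries and from 335936 to 384287 in the control libraries. The commonest ratio of low values between the libraries of 1 time gave relative depths of 0.927 to 1.141, long-labelled over control. Only 10.3 to 18.52% of these low genes lay within 0.05 log2 units of that ratio, so the depths are rough. Of 22925 gene symbols, 7860 were tested. Of 15 markers of mesenchymal and osteosarcoma cells, 5 had a mean of at least 1 FPKM, namely VIM, COL1A1, CD44, NT5E and ENG, while the osteoblast marker BGLAP was listed at 0 in all 12 libraries and RUNX2, SPARC and FN1 lay under 1 FPKM. These 15 markers summed to 510 to 842 FPKM in the long-labelled libraries, against 119 to 671 FPKM in the control libraries. The low end of the control range is the 1 h library, in which VIM was listed at 0, beside 349.6 to 554 FPKM at the other times, and COL1A1 had listed zeros in both series. The 3 tested markers, CD44, NT5E and ENG, summed to 88.8 to 108 FPKM in the long-labelled and 88.5 to 106 FPKM in the control libraries. Of 10 epithelial markers, 3 keratins were high and EPCAM and CDH1 near 0, and the sum was 457 to 725 FPKM in the long-labelled and 543 to 706 FPKM in the control libraries. Markers of blood and endothelial cells summed to at most 2.86 FPKM in the long-labelled and 4.24 FPKM in the control libraries, and those of neural cells to 13.7 to 19.2 FPKM in the long-labelled and 15.1 to 22.3 FPKM in the control libraries. The part of these markers in the differences given here was not tested.

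The targeted gene did not check the label. PAN3 is listed as 1 transcript, so its isoforms were not told apart, and it averaged 0.898 ± 0.556 FPKM in the long-labelled libraries, against 0.988 ± 0.847 FPKM in the control libraries (SD, n = 6 each). An exact two-sided sign-flip permutation test over the 6 times gave p = 0.812 for a mean difference of -0.0905 FPKM, and the smallest p it could give was 0.03125. PAN2, the catalytic partner, was listed at 0 at 0 h in the long-labelled series and at 7.46 to 9.1 FPKM at the later 5 times, against 8.5 to 11.9 FPKM in the control series. Because of that zero it was not tested. The series is called long-labelled throughout for this reason.

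Levels differed widely between the long-labelled and the control series. A level difference is the difference of log2(FPKM + 0.1) after each library is centred on its median tested gene, fitted in limma with time as a factor, and a gene was called at a Benjamini-Hochberg adjusted p under 0.05. In this fit 4023 of 7860 genes were called, or 51.2%, with 2128 higher in the long-labelled series (27.1%) and 1895 lower (24.1%). Most called differences were small. The median size among called genes was 0.57 on the log2 scale, 375 genes were higher and 371 lower by at least 1, and 30 were higher and 57 lower by at least 2. The long-labelled value lay on the same side of the control value at all 6 times for 1761 of the genes called higher and 1574 of those called lower, and 3761 of all tested genes (47.8%) lay on 1 side throughout. Non-overlap of the 2 series, given for single genes below, is a description. Its share among all tested genes was not counted, so it sets no gene apart by itself. The difference was present before transcription had been blocked. At 0 h, 3896 of the 4023 called genes already had the sign of the fitted difference, and the median size of the difference over all tested genes was 0.36 at 0 h and 0.43 at 6 h. With the scale used, a fold change of a low gene is understated, and in these bulk samples fewer cells that make an RNA and less of it per cell cannot be told apart. A gene was left out when it was listed at 0 beside a clear value of the same series, because housekeeping genes such as PPIA were listed so. Another 1532 tested genes, 730 of them called, hold at least 1 transcript with such a zero or one at 0 throughout 1 of the 2 series. Those named here are marked as holding a doubtful transcript.

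**Figure D1:**
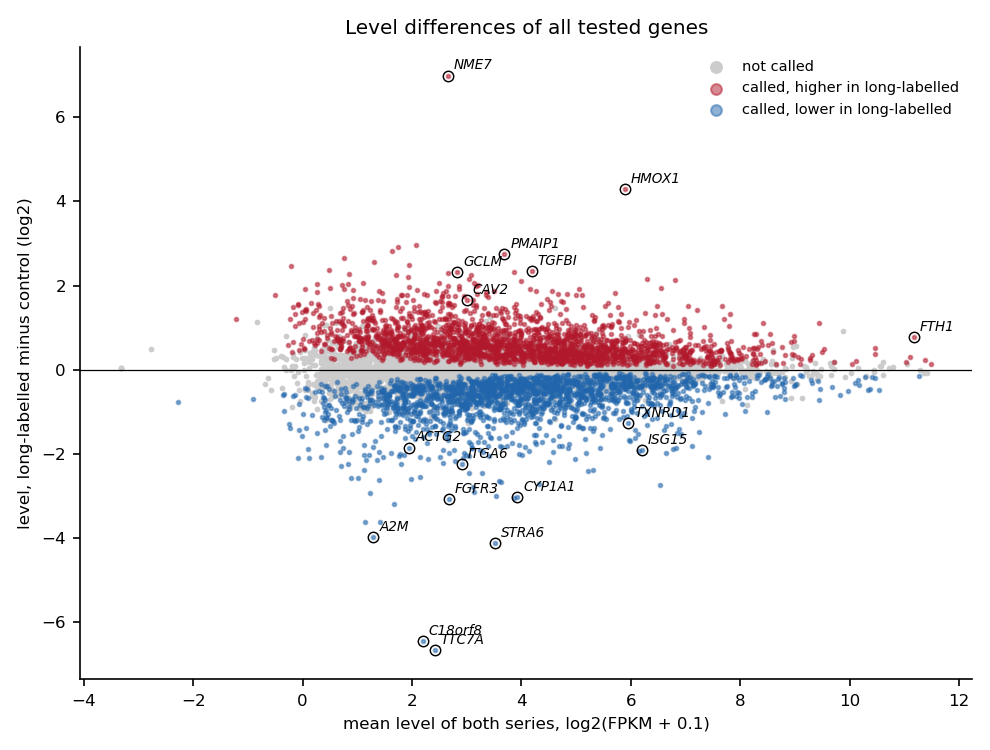
Level difference between the long-labelled and the control series on the log2 scale (y axis) against the mean level over both series in FPKM (log x axis), 1 point for each of 7860 tested genes, with the 2128 genes called higher and the 1895 called lower in colour and genes of the text ringed. HMOX1 stands highest among the genes measured in both series, and the called genes spread over the whole range of levels.

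The named groups of genes moved unevenly. The lists with the most one-sided counts were nucleolar ribosome biogenesis, with 29 of 55 tested members higher and 2 lower, and S phase and replication, with 19 of 44 higher and 2 lower. On the other side stood cholesterol and fatty acid synthesis, with 22 of 32 lower, contractile genes, with 9 of 11 lower, and the interferon response, with 14 of 25 lower. These counts stand beside 27.1% higher and 24.1% lower among all tested genes, whose median difference was 0.03. The same shares stand beside every count of level calls in a list given below. Against the same control libraries the list medians of the short-labelled and both-labelled series were 0.29 and 0.35 for replication, beside 0.23 in the long-labelled series. They were 0.07 and 0.25 for nucleolar genes and -0.65 and -0.77 for contractile genes. Those of the interferon and sterol lists are given below. A gene given without its values in those series is not thereby particular to the long-labelled series. SRF stood at -1.909 and -2.131, NR4A3 at -2.873 and -3.592 and ERO1L at 2.547 and 2.624 in the short-labelled and both-labelled series, on the same side as in the long-labelled series. LSM6, at -0.327 and -0.242, lay on the other side.

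**Figure D2:**
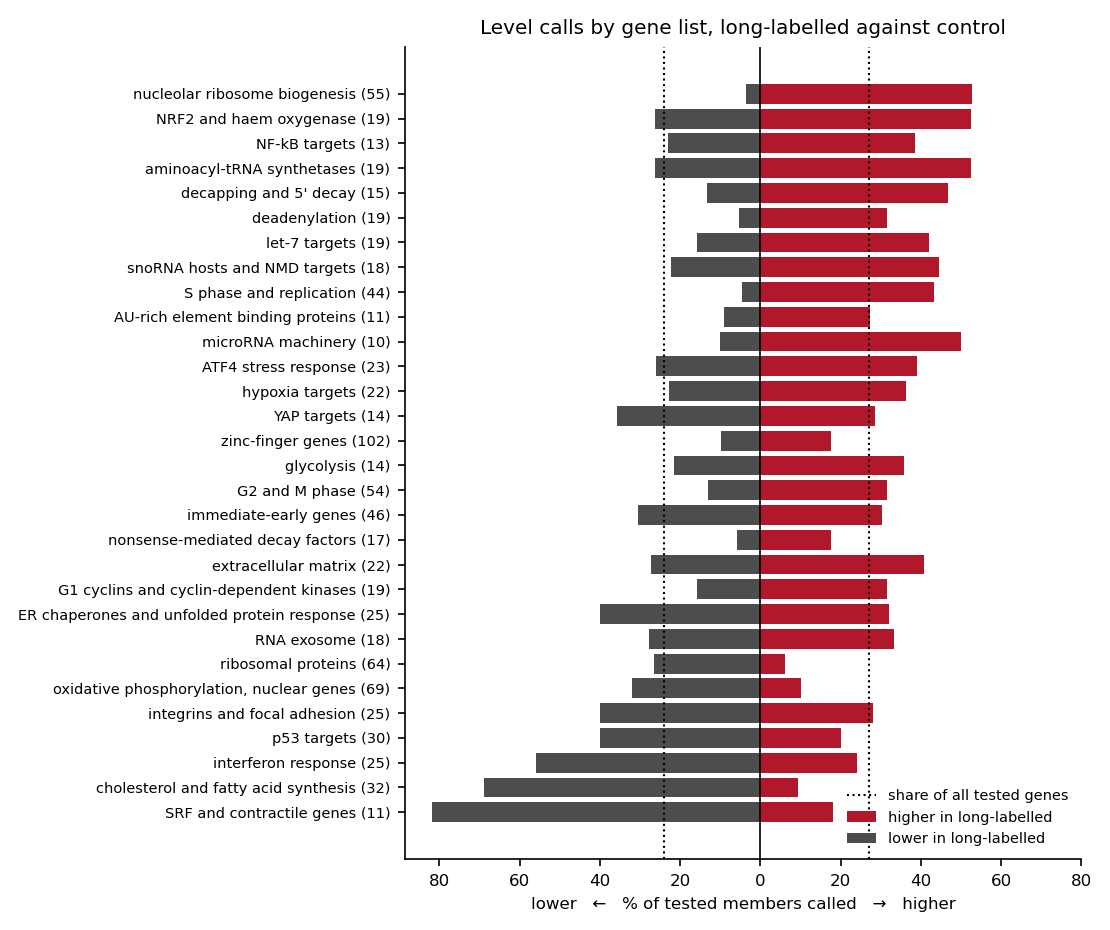
Share of the tested members of each gene list (rows, lists with at least 10 tested members) called higher in the long-labelled series (bars to the right, percent) or lower (bars to the left, percent), with dotted lines at the shares among all tested genes, 27.1% and 24.1%. Nucleolar ribosome biogenesis has the longest bar with few members on the other side, and contractile, cholesterol and interferon genes have the longest bars to the left.

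HMOX1, a gene of the antioxidant response, had the largest positive difference among the genes measured in both series. NRF2 is the transcription factor that switches on these genes under oxidative stress, KEAP1 holds it in check, and BACH1 is a repressor that competes for the same DNA element and is released by haem. Of 25 listed genes 19 were tested, of which 10 were higher and 5 lower, with a median of 0.33. HMOX1 encodes haem oxygenase 1, which breaks haem down. It was at 43.6 to 165 FPKM (median 119.6) in the long-labelled libraries, against 0.908 to 13.6 FPKM (median 7.63) in the control libraries. Every long-labelled library stood above every control library. The level difference of HMOX1 was 4.29 ± 0.30 (SE), adjusted p = 1.39e-09, or 19.5-fold. This is an average over the 6 times, and the gap widened with time. HMOX1 was at 150 FPKM in the long-labelled and 12.9 FPKM in the control library at 0 h, and at 43.6 and 0.908 FPKM at 6 h. Against the same control libraries it was 0.01 in the both-labelled series, which had received the same siRNA, and -0.63 in the short-labelled series. The long-labelled series was above the both-labelled one by 4.28, adjusted p = 1.11e-09.

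GCLM, the modifier subunit of the enzyme that makes the glutathione precursor, was at 8.28 to 16 FPKM (median 11.5) with the long-labelled siRNA, against 1.62 to 2.91 FPKM (median 2.37) with the control siRNA. The series did not overlap, and the difference was 2.33 ± 0.24 (SE), adjusted p = 3.2e-07, or 5.02-fold. Ferritin, which stores the iron that haem oxygenase frees, was higher in both chains. FTH1, its heavy chain, was at 2185 to 3483 FPKM (median 2766) in the long-labelled series and 1426 to 2028 FPKM (median 1776) in the control series, a difference of 0.77 ± 0.05 (SE), adjusted p = 1.21e-09, although FTH1 has many pseudogene copies that could share its reads. The light chain FTL differed by 0.38 ± 0.08 (SE), adjusted p = 0.000681, with overlapping series. It was higher at 5 of 6 times in FPKM, and at 1 h it was at 1373 FPKM in the long-labelled library, against 1405 FPKM in the control library. ME1 and PGD, which regenerate NADPH, and NQO1, a quinone reductase, were also higher at every time, by 0.56, 0.38 and 0.33 with adjusted p of 3.44e-08, 1.65e-07 and 9.85e-05. OSGIN1, an oxidative stress-induced growth inhibitor, was higher by 0.84 ± 0.14 (SE), adjusted p = 9.52e-05.

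The regulators were lower. BACH1 was at 2.7 to 4.55 FPKM (median 3.28) in the long-labelled libraries, against 5.52 to 19.9 FPKM (median 7.63) in the control libraries, with no overlap, a difference of -1.38 ± 0.22 (SE), adjusted p = 4.99e-05. KEAP1 differed by -0.57 ± 0.14 (SE), adjusted p = 0.00308, with overlapping series, and it fell with time in both. NFE2L2, the gene of NRF2, differed by -0.75 ± 0.25 (SE), adjusted p = 0.0199, and this call was lost (adjusted p up to 0.0592) when the long-labelled library at 0 h or the control library at 2 or 6 h was left out. Not every target was higher. TXNRD1, thioredoxin reductase, was at 30.4 to 45 FPKM (median 35.3) in the long-labelled series and 71.2 to 103 FPKM (median 89.1) in the control series, a difference of -1.26 ± 0.09 (SE), adjusted p = 1.92e-09, and it holds a doubtful transcript. SRXN1, sulfiredoxin, was at 23.2 FPKM in the long-labelled and 21 FPKM in the control libraries at the median and was not called (adjusted p = 0.151).

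The promoter of GCLM is shown because it carries the DNA element of this pathway. It is given from 250 bases before to 50 bases after the start, from RefSeq on build GRCh38.p14 at chr1:93909381-93909680, minus strand, with the antioxidant element TGACNNNGC, here on the opposite strand, in capitals.
GCLM: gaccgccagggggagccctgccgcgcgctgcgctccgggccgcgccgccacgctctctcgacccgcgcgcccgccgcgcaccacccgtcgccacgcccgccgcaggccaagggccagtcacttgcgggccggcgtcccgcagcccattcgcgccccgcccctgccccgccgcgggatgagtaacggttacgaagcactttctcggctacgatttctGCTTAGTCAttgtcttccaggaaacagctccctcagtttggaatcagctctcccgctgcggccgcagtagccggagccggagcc
Searched on both strands, that element was in the promoters of 5 of the 16 tested members that had a promoter in the table, namely GCLM, KEAP1, ME1, PGD and TXNRD1, against 13.35% of 35116 promoters and 19.46% of those of tested genes. HMOX1 has its known elements far upstream of this window, in distal enhancers. A match is a description and no sign of binding.

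**Figure D3:**
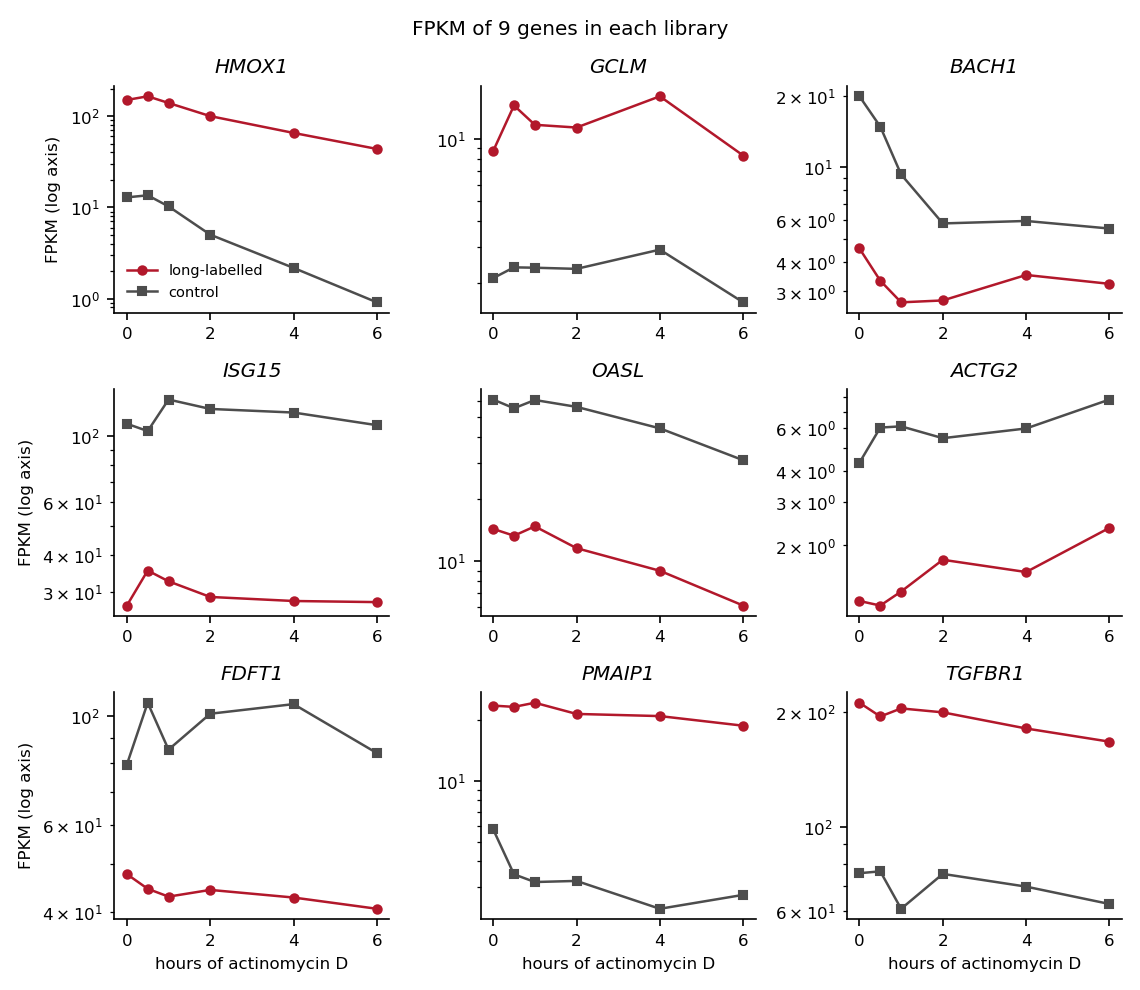
FPKM (log y axis) against hours of actinomycin D (x axis) for 9 genes, with the 6 long-labelled libraries as red circles and the 6 control libraries as grey squares, 1 library for each point. HMOX1, GCLM, PMAIP1 and TGFBR1 lie above the control course at all 6 times, and BACH1, ISG15, OASL, ACTG2 and FDFT1 lie below it at all 6.

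Interferon-stimulated genes were mostly lower in the long-labelled series. Type I interferon acts through the factor ISGF3, which contains STAT2 and IRF9 and binds an element in the promoters of antiviral genes. Of 40 listed genes 25 were tested, of which 14 were lower and 6 higher, with a median of -0.43. The higher count fell to 3 without the control library at 2 h or without the time 2 h or 4 h, and to 2 without the pairing by time, while the lower count stayed at 14 in each fit with 1 library or time left out. Against the same control libraries the median was 0.72 in the short-labelled and 0.53 in the both-labelled series. ISG15, a ubiquitin-like protein attached to other proteins during antiviral defence, was at 27 to 35.4 FPKM (median 28.4) in the long-labelled libraries, against 104 to 133 FPKM (median 115) in the control libraries. No long-labelled library came near a control library, and the difference was -1.92 ± 0.07 (SE), adjusted p = 1.07e-13, or 3.78-fold lower. OASL, an antiviral protein of the oligoadenylate synthetase family, was at 6.1 to 14.8 FPKM (median 12.4) with the long-labelled siRNA, against 30.8 to 60.7 FPKM (median 55.5) with the control siRNA, a difference of -2.12 ± 0.09 (SE), adjusted p = 1.24e-12. IFIT3, which binds viral RNA together with its relatives, was at 2.71 to 4.85 FPKM (median 3.82) in the long-labelled series and 8.11 to 12.6 FPKM (median 11.7) in the control series, a difference of -1.50 ± 0.18 (SE), adjusted p = 2.14e-06. For all 3 genes the series did not overlap.

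IFIT2, a relative of IFIT3, differed by -1.41 ± 0.08 (SE), adjusted p = 1.77e-10, and IFI6, an interferon-inducible membrane protein, by -0.56 ± 0.06 (SE), adjusted p = 5.59e-07. Both were lower at 6 of 6 times within courses that overlapped. IFIH1, the sensor of long double-stranded RNA also called MDA5, differed by -0.62 ± 0.10 (SE), adjusted p = 5.88e-05, and HERC5, the ligase that attaches ISG15, by -0.71 ± 0.10 (SE), adjusted p = 1.05e-05. Of the factor itself, STAT2 was at 3.9 to 6.16 FPKM (median 5.08) in the long-labelled series and 8.28 to 13.4 FPKM (median 11.1) in the control series, a difference of -1.05 ± 0.15 (SE), adjusted p = 1.33e-05. IRF9 was lower, differing by -0.69 ± 0.09 (SE), adjusted p = 8.25e-06. OAS3, which makes the messenger that activates RNase L, went the other way: it was at 9.21 to 11.3 FPKM (median 10.3) with the long-labelled siRNA, against 4.37 to 5.6 FPKM (median 5.37) with the control siRNA, a difference of 1.00 ± 0.14 (SE), adjusted p = 6.82e-06.

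Set directly against the short-labelled series, in a contrast that uses the control libraries only for the spread, ISG15 differed by -2.69 (adjusted p = 5.84e-16), OASL by -2.46 (adjusted p = 8.75e-14) and IFIT2 by -2.84 (adjusted p = 8.03e-15). OAS3 again had the opposite sign, 1.87 (adjusted p = 1.34e-09). In that direct comparison 5027 of the 7860 genes were called, or 64%, so a call by itself sets no gene apart.

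The promoters of ISG15 and IFI6 are shown because both genes were lower and both carry repeats of the interferon element. They are RefSeq sequences on GRCh38.p14, at chr1:1013247-1013546 on the plus strand and chr1:27672143-27672442 on the minus strand, and capitals mark each match to GAAANNGAAA, 2 of them overlapping in ISG15.
ISG15: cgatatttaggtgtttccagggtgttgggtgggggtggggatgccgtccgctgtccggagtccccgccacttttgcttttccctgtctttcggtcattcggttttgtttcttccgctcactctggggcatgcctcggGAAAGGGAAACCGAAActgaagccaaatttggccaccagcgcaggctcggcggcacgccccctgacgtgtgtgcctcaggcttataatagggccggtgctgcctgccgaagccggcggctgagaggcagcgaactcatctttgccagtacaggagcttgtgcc
IFI6: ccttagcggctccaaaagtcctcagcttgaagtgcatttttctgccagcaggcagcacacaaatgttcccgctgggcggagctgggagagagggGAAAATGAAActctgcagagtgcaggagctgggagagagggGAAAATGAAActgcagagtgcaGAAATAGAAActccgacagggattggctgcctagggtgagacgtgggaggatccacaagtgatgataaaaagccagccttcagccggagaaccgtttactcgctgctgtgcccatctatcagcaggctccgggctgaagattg
On either strand the element was in 16 of the 20 tested members with a promoter in the table, against 3.57% of all promoters and 3.61% of those of tested genes. OAS3, which was higher, is among the 16.

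**Figure D4:**
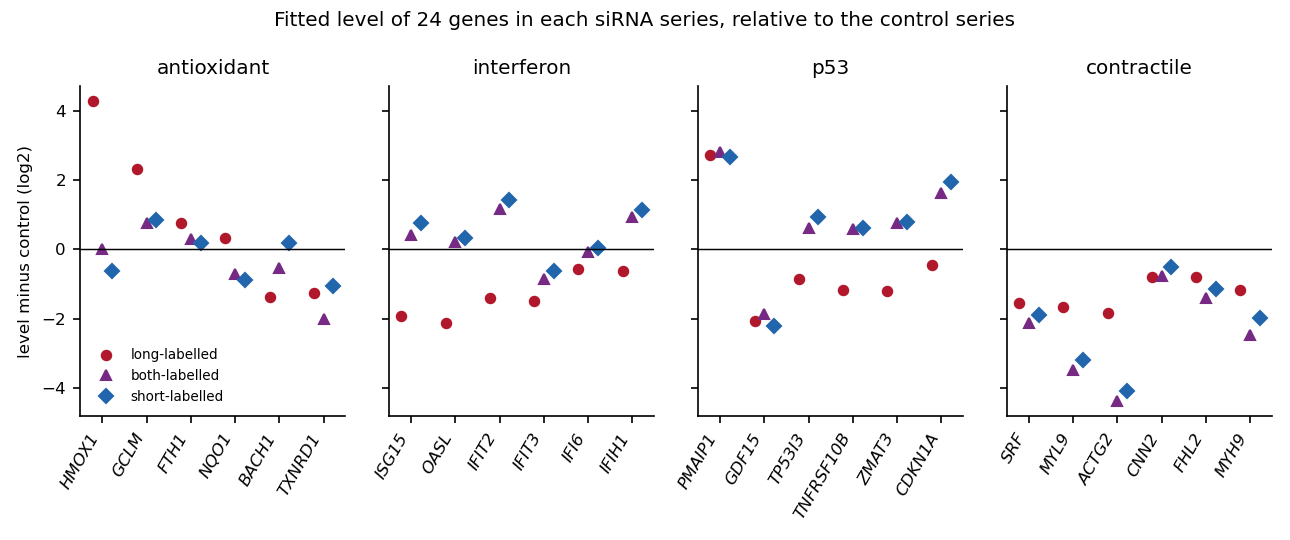
Level difference from the control series on the log2 scale (y axis) for 24 genes (x axis) in 4 groups (panels), shown for the long-labelled, both-labelled and short-labelled series, which share the control libraries. HMOX1 is raised in the long-labelled series alone of the 3, ISG15, OASL and IFIT2 lie on opposite sides of 0 in the long-labelled and short-labelled series, and PMAIP1 is raised in all 3.

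Contractile genes and other targets of serum response factor were lower. SRF is a transcription factor that binds the CArG box of cytoskeletal genes and answers to the pool of free actin. Of 20 listed genes 11 were tested and all were called, 9 lower and 2 higher, with a median of -0.80. SRF itself was at 7.87 to 11.8 FPKM (median 8.6) in the long-labelled libraries, against 21.4 to 37.9 FPKM (median 28.5) in the control libraries, a difference of -1.56 ± 0.10 (SE), adjusted p = 4.52e-10. MYL9, a regulatory light chain of myosin, was at 8.54 to 14.4 FPKM (median 11.2) with the long-labelled siRNA, against 25.8 to 48.6 FPKM (median 37.5) with the control siRNA, a difference of -1.67 ± 0.14 (SE), adjusted p = 2.48e-08. ACTG2, smooth muscle gamma actin, was low throughout, at 1.14 to 2.36 FPKM (median 1.43) in the long-labelled series and 4.34 to 7.84 FPKM (median 6.01) in the control series, a difference of -1.85 ± 0.18 (SE), adjusted p = 1.37e-07. All 3 were lower without overlap. Reads of ACTG2 and ACTA2 could be shared with the near-identical other actins.

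MYH9, the heavy chain of non-muscle myosin, was at 41.9 to 54.9 FPKM (median 50.7) in the long-labelled libraries, against 97.2 to 146 FPKM (median 109) in the control libraries, a difference of -1.18 ± 0.24 (SE), adjusted p = 0.000513. CNN2, a calponin that stabilises actin filaments, was at 56.6 to 59.3 FPKM (median 58.8) in the long-labelled series and 99.7 to 112 FPKM (median 106) in the control series, and the 6 long-labelled libraries lay closer together than the gap to the control libraries (difference -0.81 ± 0.10 (SE), adjusted p = 3.19e-06). CALD1, caldesmon, which holds a doubtful transcript, VCL, vinculin, FHL2, a coactivator, and ACTA2, smooth muscle alpha actin, were lower, differing by -0.43, -0.43, -0.80 and -0.50 with adjusted p of 2.2e-05, 5.16e-09, 4.57e-06 and 0.000171. The 2 higher members were TPM2 (0.13) and MYH10 (0.34), and neither was called without centring, which left 0 higher and 9 lower. The call of TPM2 was also lost without the libraries at 0 h or at 0.5 h (adjusted p up to 0.0759). That of MYH10 was lost when any of 9 single libraries was left out, which were the long-labelled ones at 0, 1, 2, 4 and 6 h and the control ones at 0, 1, 4 and 6 h (adjusted p up to 0.115). In the short-labelled and both-labelled series MYL9 (-3.19 and -3.50) and ACTG2 (-4.11 and -4.38) lay further below the same control libraries.

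The promoters of ACTG2 and CNN2 are shown for their CArG boxes, marked in capitals. They are RefSeq sequences on GRCh38.p14 at chr2:73892758-73893057 and chr19:1026358-1026657, both on the plus strand.
ACTG2: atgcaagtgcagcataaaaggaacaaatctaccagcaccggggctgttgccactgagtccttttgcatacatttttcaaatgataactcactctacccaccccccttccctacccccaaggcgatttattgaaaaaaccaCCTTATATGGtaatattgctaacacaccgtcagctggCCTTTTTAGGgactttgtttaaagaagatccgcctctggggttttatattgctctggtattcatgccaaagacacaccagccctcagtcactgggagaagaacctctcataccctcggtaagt
CNN2: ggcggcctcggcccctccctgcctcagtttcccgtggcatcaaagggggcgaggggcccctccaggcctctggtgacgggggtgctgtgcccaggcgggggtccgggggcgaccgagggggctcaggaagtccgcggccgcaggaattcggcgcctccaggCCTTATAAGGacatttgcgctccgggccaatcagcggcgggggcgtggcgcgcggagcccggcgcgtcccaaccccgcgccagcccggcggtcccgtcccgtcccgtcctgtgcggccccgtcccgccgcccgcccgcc
A CArG box was in 4 of the 10 tested members with a promoter in the table (ACTG2, CNN2, FHL2 and SRF), against 1.29% of all promoters and 1.4% of those of tested genes.

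Genes of adhesion and matrix split. Of 36 listed integrin and focal adhesion genes 25 were tested, with 7 higher, 10 lower and a median of -0.16. ITGA6, the alpha chain of a laminin receptor, was at 2.07 to 2.9 FPKM (median 2.38) in the long-labelled libraries, against 9.9 to 14.3 FPKM (median 12.7) in the control libraries, a difference of -2.25 ± 0.11 (SE), adjusted p = 1.17e-11. ITGB5, a beta chain of vitronectin receptors, was at 28.5 to 44 FPKM (median 31.8) with the long-labelled siRNA, against 68 to 148 FPKM (median 104) with the control siRNA, a difference of -1.53 ± 0.16 (SE), adjusted p = 2.38e-07. ZYX, zyxin of the focal adhesion, was lower, differing by -0.67 ± 0.05 (SE), adjusted p = 4.09e-09. CAV2, caveolin 2, was higher at 10.2 to 13.7 FPKM (median 11.8) in the long-labelled series and 3.46 to 4.27 FPKM (median 3.77) in the control series, a difference of 1.65 ± 0.09 (SE), adjusted p = 3.59e-11, and LIMS1, an adaptor at integrin tails, was higher by 0.75 ± 0.05 (SE), adjusted p = 1.14e-09. None of these 5 genes overlapped between the series.

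Among 45 listed matrix genes 22 were tested, with 9 higher and 6 lower. TGFBI, a matrix protein induced by TGF-beta, was at 26.4 to 36.5 FPKM (median 29.5) in the long-labelled libraries, against 4.99 to 7.4 FPKM (median 6.11) in the control libraries, a difference of 2.34 ± 0.05 (SE), adjusted p = 1.96e-16, or 5.06-fold. TGFBI stood at 2.315 in the short-labelled and 2.187 in the both-labelled series against the same controls. The basement membrane genes COL4A1, COL4A2 and LAMC1 were higher by 0.96, 0.56 and 0.48, with adjusted p of 9.03e-12, 4.41e-07 and 9.01e-07. THBS1, thrombospondin 1, was at 14.8 to 23.5 FPKM (median 17.9) in the long-labelled series and 33.9 to 67.1 FPKM (median 49.3) in the control series, a difference of -1.39 ± 0.11 (SE), adjusted p = 1.06e-08. TNC, tenascin C, was higher by 2.05 ± 0.29 (SE), adjusted p = 1.04e-05 at values of at most 5.00 FPKM. The receptor TGFBR1, which is also a known let-7 target, was at 167 to 212 FPKM (median 197) with the long-labelled siRNA, against 60.8 to 76.3 FPKM (median 72.4) with the control siRNA, a difference of 1.51 ± 0.04 (SE), adjusted p = 1.8e-14. It was raised by 0.80 and 1.05 in the short-labelled and both-labelled series.

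YAP targets showed no common direction, with 4 of 14 tested members higher and 5 lower of 16 listed. CYR61 and CTGF, secreted proteins that are the usual readouts of YAP, were lower, differing by -1.08 ± 0.17 (SE), adjusted p = 3.44e-05 and by -0.77 ± 0.14 (SE), adjusted p = 0.000227. LATS2, the kinase that restrains YAP, was lower, differing by -0.70 ± 0.12 (SE), adjusted p = 0.000143. NT5E, the cell surface enzyme CD73, was higher by 1.02 ± 0.05 (SE), adjusted p = 2.76e-11.

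Sterol synthesis was lower along most of its pathway. SREBP2, encoded by SREBF2, drives these genes when cells lack cholesterol. Of 33 listed genes 32 were tested, with 22 lower, 3 higher and a median of -0.47. FDFT1, squalene synthase, was at 40.6 to 47.7 FPKM (median 43.6) in the long-labelled series and 79.6 to 106 FPKM (median 93.1) in the control series, a difference of -1.04 ± 0.07 (SE), adjusted p = 4.92e-10. The series did not overlap.

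HMGCS1, LSS and SC4MOL, which act at the start, middle and end of sterol synthesis, were lower, differing by -0.47, -0.52 and -0.70 with adjusted p of 1.45e-08, 4.52e-08 and 2.16e-09, and the last 2 hold a doubtful transcript. The 3 higher genes were ACLY, which makes cytosolic acetyl-CoA, by 0.73 ± 0.15 (SE), adjusted p = 0.000696, SQLE, squalene epoxidase, by 0.55 ± 0.06 (SE), adjusted p = 1.18e-06, and INSIG1, which retains the SREBP complex in the endoplasmic reticulum, by 0.56 ± 0.16 (SE), adjusted p = 0.0067. ACLY and INSIG1 hold a doubtful transcript. SCD, the stearoyl-CoA desaturase, was not called, at 256 FPKM in the long-labelled and 275 FPKM in the control libraries at the median (adjusted p = 0.829). Against the same control libraries HMGCS1 stood at -0.65 in the short-labelled and -0.52 in the both-labelled series, LSS at -0.77 and -0.49, and SC4MOL at 0.63 and 0.47, and the medians of the list were -0.19 and -0.09.

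Nucleolar genes were more often higher than lower. The nucleolus makes ribosomal RNA and assembles ribosomal subunits, and many of its genes are targets of MYC. Of 58 listed genes 55 were tested, with 29 higher, 2 lower and a median of 0.38. NCL, nucleolin, was at 353 to 423 FPKM (median 409.9) in the long-labelled libraries, against 243 to 290.4 FPKM (median 276) in the control libraries, a difference of 0.59 ± 0.03 (SE), adjusted p = 1.23e-10. DKC1, the pseudouridine synthase, was at 77.2 to 97.5 FPKM (median 95.6) with the long-labelled siRNA, against 54.4 to 72.8 FPKM (median 69.1) with the control siRNA, a difference of 0.53 ± 0.04 (SE), adjusted p = 1.88e-08. NOP2, a ribosomal RNA methyltransferase that holds a doubtful transcript, was at 51.7 to 94.7 FPKM (median 82) in the long-labelled series and 26.7 to 43.7 FPKM (median 32.8) in the control series, a difference of 1.13 ± 0.15 (SE), adjusted p = 7.9e-06. None of the 3 overlapped. RRP1B, MRTO4 and EBNA1BP2, which act in assembly of the large subunit, were higher at every time by 0.74, 0.39 and 0.44 with adjusted p of 9.27e-09, 3.59e-07 and 3.2e-06.

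MYC was at 31.1 to 180.1 FPKM (median 57.5) in the long-labelled libraries, against 8.29 to 128 FPKM (median 30.3) in the control libraries. MYC mRNA is short-lived and fell in both series, whose values overlapped, but it was higher at 6 of 6 times, by 1.14 ± 0.16 (SE), adjusted p = 1.14e-05. In the short-labelled and both-labelled series it was -0.70 and -0.28 relative to the same control libraries, and the direct difference from the short-labelled series was 1.84 (adjusted p = 1.72e-08). Of 79 listed ribosomal protein genes 64 were tested, with 4 higher, 17 lower and a median of -0.05, and without centring 2 higher and 22 lower. Among all tested genes 27.1% were higher and 24.1% lower, so the lower share was near that of all genes and the higher share below it. With 1 library or time left out the higher count ran from 1 to 6 and the lower count from 13 to 20. The higher count was 2 without the long-labelled library at 0.5 h or 4 h or the control library at 0.5 h. Without the pairing by time 1 was higher and 5 were lower. RPL7A (-1.04, adjusted p = 1.93e-09) and RPL23A (0.56, adjusted p = 7.39e-05) are uncertain because of their pseudogene copies.

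Replication genes were more often higher than lower. Of 50 listed 44 were tested, with 19 higher, 2 lower, 23 not called and a median of 0.23. Without the pairing by time 10 were higher and 2 lower. MCM3, a subunit of the replicative helicase, was at 100 to 106 FPKM (median 104) with the long-labelled siRNA, against 55 to 65.1 FPKM (median 62.4) with the control siRNA, a difference of 0.80 ± 0.03 (SE), adjusted p = 7.92e-14. ORC6, of the origin recognition complex, was at 27.1 to 34.2 FPKM (median 32.3) in the long-labelled series and 18 to 24.5 FPKM (median 20.8) in the control series, a difference of 0.62 ± 0.04 (SE), adjusted p = 2.77e-09. ORC1, GINS4 and TYMS (thymidylate synthase) were higher by 0.59, 1.09 and 0.45, with adjusted p of 1.1e-06, 0.000459 and 1.29e-06, and ORC1 holds a doubtful transcript. POLD2, a subunit of DNA polymerase delta that also holds one, was lower, differing by -0.40 ± 0.06 (SE), adjusted p = 2.39e-05. The S phase cyclins CCNE1 and CCNE2 were not called (adjusted p = 0.958 and 0.901).

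Of 64 mitotic genes 54 were tested, with 17 higher and 7 lower. AURKB, the kinase of the chromosomal passenger complex, was higher by 0.80 ± 0.09 (SE), adjusted p = 6.92e-07, and KIF11, the spindle motor, by 0.59 ± 0.07 (SE), adjusted p = 1.39e-06, whereas BUB1, a spindle checkpoint kinase, was lower, differing by -0.39 ± 0.06 (SE), adjusted p = 1.65e-05. Of 21 regulators of G1 19 were tested, with 6 higher and 3 lower. CDK6 was higher by 1.24 ± 0.28 (SE), adjusted p = 0.00127, with a doubtful transcript and at most 5.43 FPKM, and E2F3 by 0.97 ± 0.20 (SE), adjusted p = 0.000533. CCND1, cyclin D1, was at 24.7 to 32.2 FPKM (median 26.4) in the long-labelled libraries, against 32.3 to 38.4 FPKM (median 34.5) in the control libraries, a difference of -0.32 ± 0.09 (SE), adjusted p = 0.0094.

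Of 20 listed aminoacyl-tRNA synthetases, which charge tRNA with amino acids, 19 were tested, with 10 higher, 5 lower and a median of 0.28. HARS, TARS and GARS were higher by 0.43, 0.44 and 0.39 with adjusted p of 9.83e-10, 6.65e-09 and 5.14e-08. QARS, for glutamine, was at 63.6 to 73.3 FPKM (median 70.8) in the long-labelled series and 104 to 117 FPKM (median 107) in the control series, a difference of -0.59 ± 0.03 (SE), adjusted p = 1.41e-11. WARS, for tryptophan, which interferon also induces, was higher by 0.58 ± 0.07 (SE), adjusted p = 1.75e-06. Of 27 listed ATF4 genes 23 were tested, with 9 higher and 6 lower, or 8 and 8 without centring, and 8 and 3 without the control library at 6 h.

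Nuclear genes of oxidative phosphorylation were more often lower than higher. Of 76 listed 69 were tested, with 7 higher, 22 lower and a median of -0.13, and 1 and 4 without the pairing by time. These counts stand beside 27.1% higher and 24.1% lower among all tested genes. ATP5B, the catalytic beta subunit of ATP synthase, was at 535 to 654 FPKM (median 568) in the long-labelled libraries, against 714 to 970.5 FPKM (median 829) in the control libraries, a difference of -0.47 ± 0.03 (SE), adjusted p = 1.99e-09. NDUFC1, a complex I subunit with a doubtful transcript, was higher by 0.77 ± 0.09 (SE), adjusted p = 9.16e-07. Of 19 listed glycolytic genes 14 were tested, with 5 higher and 3 lower, or 2 and 3 without centring. The higher count fell to 3 when any of 6 single libraries was left out, at 0.5, 2 or 4 h in either series, and to 0 without the pairing by time. ALDOC, aldolase C, was at 2.92 to 4.89 FPKM (median 3.71) with the long-labelled siRNA, against 12.7 to 17.7 FPKM (median 14.9) with the control siRNA, a difference of -1.91 ± 0.11 (SE), adjusted p = 7.77e-11, and PFKL, the liver form of phosphofructokinase, was lower, differing by -0.79 ± 0.06 (SE), adjusted p = 2.75e-09. Of 26 listed hypoxia targets 22 were tested, with 8 higher and 5 lower. ERO1L, which drives disulphide formation in the endoplasmic reticulum, was at 14.6 to 18.8 FPKM (median 16.7) in the long-labelled series and 5.57 to 6.74 FPKM (median 6.1) in the control series, a difference of 1.48 ± 0.05 (SE), adjusted p = 6.91e-14. EGLN3, an oxygen sensor, was higher by 1.45 ± 0.16 (SE), adjusted p = 4.76e-07, and P4HA2, a collagen prolyl hydroxylase with a doubtful transcript, lower, differing by -0.92 ± 0.07 (SE), adjusted p = 6.71e-09. Of 28 listed chaperone genes of the endoplasmic reticulum 25 were tested, with 8 higher and 10 lower. CRELD2 was higher by 0.49 ± 0.05 (SE), adjusted p = 7.35e-08 and the co-chaperone DNAJB9 lower, differing by -0.81 ± 0.07 (SE), adjusted p = 6.57e-08, and DNAJB9 was 1.42 in the short-labelled series.

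Targets of p53 split in the long-labelled series. The tumour suppressor p53 halts the cell cycle and induces cell death genes after damage. Of 36 listed genes 30 were tested, with 6 higher, 12 lower and a median of -0.21, while the median of the short-labelled series against the same controls was 0.93. PMAIP1, the pro-death protein NOXA, was at 18.7 to 24.3 FPKM (median 22.3) in the long-labelled libraries, against 2.33 to 5.76 FPKM (median 3.18) in the control libraries, a difference of 2.74 ± 0.09 (SE), adjusted p = 1.07e-13, or 6.69-fold. It stood apart from the control in all series, by 2.67 in the short-labelled and 2.81 in the both-labelled series. GDF15, a stress cytokine, was at 43.4 to 143 FPKM (median 50.8) with the long-labelled siRNA, against 230.0 to 333 FPKM (median 268) with the control siRNA, a difference of -2.08 ± 0.14 (SE), adjusted p = 5.87e-10, and it too was lower in the short-labelled and both-labelled series (-2.22 and -1.88).

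CDKN1A, the cell cycle inhibitor p21, was at 55.8 to 122 FPKM (median 92.4) in the long-labelled series and 62.6 to 195 FPKM (median 143) in the control series. It was lower at 6 of 6 times by -0.46 ± 0.11 (SE), adjusted p = 0.00211, against 1.93 in the short-labelled series, and the direct difference between these 2 series was -2.39 (adjusted p = 3.08e-12). It holds a doubtful transcript. The death receptors TNFRSF10B and TNFRSF10A were lower, differing by -1.16 ± 0.13 (SE), adjusted p = 9e-07 and by -0.74 ± 0.09 (SE), adjusted p = 2.41e-06. FDXR, ferredoxin reductase, ZMAT3, an RNA-binding protein, and TP53I3, an oxidoreductase with a doubtful transcript, were lower, differing by -1.10, -1.22 and -0.85, with adjusted p of 2.78e-06, 5.77e-06 and 3.87e-09. SESN2, sestrin 2, and PLK2, a stress-responsive kinase, were higher by 1.56 ± 0.27 (SE), adjusted p = 9.38e-05 and by 0.91 ± 0.21 (SE), adjusted p = 0.00127. MDM2 and FAS were not called (adjusted p = 0.806 and 0.321).

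IL6, LIF and IL11, cytokines of the IL6 family, were higher. Of 23 listed NF-kB targets 13 were tested, with 5 higher and 3 lower. IL6 was at 16.6 to 33.8 FPKM (median 18.7) in the long-labelled libraries, against 8.41 to 15.2 FPKM (median 9.22) in the control libraries, a difference of 1.10 ± 0.18 (SE), adjusted p = 7.68e-05. LIF, of the same cytokine family, was at 5.01 to 10.8 FPKM (median 6.86) with the long-labelled siRNA, against 1.15 to 3.33 FPKM (median 1.97) with the control siRNA, a difference of 1.80 ± 0.27 (SE), adjusted p = 2.37e-05. IL11, another member of that family that was named after its values were seen, was at 7.68 to 23.8 FPKM (median 12.6) in the long-labelled series and 2.47 to 3.25 FPKM (median 2.85) in the control series, a difference of 2.15 ± 0.14 (SE), adjusted p = 4.94e-10. None of these overlapped between the series. IL8 was higher by 0.76 ± 0.12 (SE), adjusted p = 5.01e-05 at no more than 2.07 FPKM. ICAM1, an adhesion molecule, and PLAUR, the urokinase receptor, were lower, differing by -0.42 ± 0.04 (SE), adjusted p = 2.66e-07 and by -0.52 ± 0.04 (SE), adjusted p = 9.72e-09. In the short-labelled series IL6 was -1.36, LIF 2.64 and IL11 0.75, and ICAM1 and PLAUR were 0.92 and 1.19, relative to the same control libraries.

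Immediate-early genes, which respond within minutes to signals and whose mRNAs are short-lived, split evenly in level. Of 56 listed 46 were tested, with 14 higher and 14 lower, or 1 and 4 without the pairing by time. NR4A3, an orphan nuclear receptor, was at 1.71 to 5.19 FPKM (median 2.66) in the long-labelled libraries, against 7.67 to 40 FPKM (median 19.6) in the control libraries, a difference of -2.65 ± 0.19 (SE), adjusted p = 2.61e-09. Its relative NR4A1, with a doubtful transcript, was lower, differing by -1.94 ± 0.21 (SE), adjusted p = 5.43e-07, FOSL1, an AP-1 subunit, by -1.18 ± 0.14 (SE), adjusted p = 1.65e-06 and ATF3, a stress-induced factor, by -1.01 ± 0.14 (SE), adjusted p = 7.7e-06. GADD45B, a stress sensor, was higher by 1.73 ± 0.13 (SE), adjusted p = 6.58e-09, DUSP1, the phosphatase that ends MAP kinase signals, by 1.52 ± 0.16 (SE), adjusted p = 2.35e-07, JUNB by 1.61 ± 0.17 (SE), adjusted p = 2.51e-07 and HES1, a Notch target, by 1.10 ± 0.14 (SE), adjusted p = 2.48e-06. The courses of these 7 genes other than NR4A3 overlapped, all of them fell with time in both series, and each lay on its side at 6 of 6 times.

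Genes of mRNA decay, the pathway that PAN3 belongs to, differed in both directions. The counts of these lists, here and below, stand beside 27.1% higher and 24.1% lower among all tested genes. No list was tested against those shares. Of 30 listed deadenylation genes 19 were tested, with 6 higher and 1 lower. Within CCR4-NOT, the scaffold CNOT1 was higher by 0.48 ± 0.15 (SE), adjusted p = 0.0143, the nuclease CNOT7, with a doubtful transcript, by 0.70 ± 0.16 (SE), adjusted p = 0.00109, and C2orf29, the subunit also called CNOT11, by 0.52 ± 0.06 (SE), adjusted p = 6.49e-07. PABPC4, a cytoplasmic poly(A)-binding protein with a doubtful transcript, was at 88.7 to 119 FPKM (median 106) in the long-labelled libraries, against 37.6 to 65.6 FPKM (median 59.7) in the control libraries, a difference of 0.94 ± 0.16 (SE), adjusted p = 8.61e-05. TOE1, a nuclear deadenylase, was the 1 lower member, by -0.44 ± 0.14 (SE), adjusted p = 0.0111. The nucleases CNOT6 and CNOT8 had a zero in another series and were not tested. CNOT6 was listed at 1.42 to 6.4 FPKM in the long-labelled and 1.38 to 2.62 FPKM in the control libraries.

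Of 24 listed decapping and 5′ decay genes 15 were tested, with 7 higher and 2 lower, or 5 and 5 without centring. LSM6, a subunit of the ring that binds deadenylated 3′ ends, was at 17.4 to 24.5 FPKM (median 21.7) with the long-labelled siRNA, against 5.92 to 9.7 FPKM (median 8.5) with the control siRNA, a difference of 1.41 ± 0.11 (SE), adjusted p = 4.64e-09. DCP2, the decapping enzyme, was higher by 0.91 ± 0.27 (SE), adjusted p = 0.00834 at no more than 2.58 FPKM, and EDC3, an enhancer of decapping with a doubtful transcript, was at 14.5 to 16.4 FPKM (median 15.1) in the long-labelled series and 30.3 to 32.9 FPKM (median 30.6) in the control series, a difference of -0.96 ± 0.04 (SE), adjusted p = 3.15e-13. Neither LSM6 nor EDC3 overlapped between the series. XRN1, the 5′ exonuclease, was listed at or below 1.8 FPKM in both series with zeros among the values, and was not tested.

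Of 24 listed exosome genes 18 were tested, with 6 higher and 5 lower, and 3 lower without the time 4 h or 6 h. The exosome is a ring of inactive subunits with a cap and a nuclease. EXOSC3, a cap subunit with a doubtful transcript, was at 1.23 to 3.54 FPKM (median 1.7) in the long-labelled libraries, against 4.62 to 22.5 FPKM (median 17) in the control libraries, a difference of -2.79 ± 0.29 (SE), adjusted p = 3.04e-07. EXOSC6, a ring subunit, was at 2.92 to 7.69 FPKM (median 4.02) with the long-labelled siRNA, against 8.51 to 18.8 FPKM (median 15.3) with the control siRNA, a difference of -1.60 ± 0.10 (SE), adjusted p = 7.23e-10. EXOSC4, another ring subunit, was at 1.15 to 28.1 FPKM (median 17) in the long-labelled series and 24.3 to 55.9 FPKM (median 44.7) in the control series with its lowest value at 6 h, a difference of -1.77 ± 0.36 (SE), adjusted p = 0.000553. MPHOSPH6, an exosome cofactor, was higher without overlap, by 1.00 ± 0.08 (SE), adjusted p = 1.45e-08.

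Of 19 listed factors of nonsense-mediated decay 17 were tested, with 3 higher and 1 lower, which was the helicase UPF1 (-0.68 ± 0.17 (SE), adjusted p = 0.00315). Of 18 listed AU-rich element binding proteins 11 were tested, with 3 higher and 1 lower. ZFP36, which brings deadenylases to AU-rich mRNAs, was higher by 0.55 ± 0.14 (SE), adjusted p = 0.00266 and IGF2BP2, an mRNA-stabilising protein, lower, differing by -0.77 ± 0.14 (SE), adjusted p = 0.000161. Of 20 listed genes of the microRNA machinery 10 were tested, with 5 higher and 1 lower. DGCR8, the partner of the nuclease Drosha, was higher by 0.92 ± 0.09 (SE), adjusted p = 7.34e-08, and TSNAX, translin-associated factor X, was at 15 to 19.4 FPKM (median 17) in the long-labelled libraries, against 32.1 to 41.5 FPKM (median 38.1) in the control libraries, a difference of -1.07 ± 0.05 (SE), adjusted p = 4.19e-12. Of 38 listed let-7 targets 19 were tested, with 8 higher and 3 lower, among them NRAS, which was higher by 0.85 ± 0.04 (SE), adjusted p = 3.65e-11. The lists of small nucleolar RNA host genes (8 higher and 4 lower of 18 tested), histones (3 and 2 of 9), nuclear-retained RNAs (3 and 1 of 7) and zinc-finger genes (18 and 10 of 102) complete the set.

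Outside the lists, the largest differences in the lower direction were in genes that the control series expressed clearly and the long-labelled one hardly. STRA6, a cell surface retinol transporter with a doubtful transcript, was at 0.67 to 1.65 FPKM (median 1.14) in the long-labelled libraries, against 18.9 to 25.4 FPKM (median 21.5) in the control libraries, a difference of -4.12 ± 0.23 (SE), adjusted p = 7.26e-11. A2M, the protease inhibitor alpha-2-macroglobulin, was at 0.059 to 0.249 FPKM (median 0.212) with the long-labelled siRNA, against 3.62 to 5.81 FPKM (median 4.36) with the control siRNA, a difference of -3.98 ± 0.19 (SE), adjusted p = 1.03e-11. SCARA5, a scavenger receptor that takes up ferritin, was at 0.186 to 0.453 FPKM (median 0.284) in the long-labelled series and 3.92 to 6.06 FPKM (median 4.87) in the control series, a difference of -3.61 ± 0.16 (SE), adjusted p = 2.86e-12. None of the 3 overlapped. OLFML2A, a secreted matrix protein, FGFR3, a fibroblast growth factor receptor, ST6GAL1, a sialyltransferase, CYP1A1, the enzyme induced by the aryl hydrocarbon receptor, PSCA, a membrane antigen, and LDHD, a lactate dehydrogenase, were lower, differing by -3.63, -3.08, -3.04, -3.03, -3.01 and -2.92, with adjusted p of at most 5.5e-06. OLFML2A and LDHD were listed at 0 in at least 1 long-labelled library, and ST6GAL1 and LDHD hold a doubtful transcript. In the short-labelled series SCARA5, ST6GAL1 and CYP1A1 stood at -3.50, -2.76 and -3.44 against the same controls. The others were lower there as well, with STRA6, A2M, OLFML2A, FGFR3, PSCA and LDHD at -1.185, -2.341, -1.543, -1.807, -1.059 and -1.851. In the both-labelled series these stood at -2.215, -2.774, -1.965, -1.785, -1.722 and -2.431.

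Higher outside the lists was C9orf41, at 5.09 to 10.1 FPKM (median 7.12) in the long-labelled libraries, against 0.549 to 1.24 FPKM (median 0.834) in the control libraries, a difference of 2.96 ± 0.16 (SE), adjusted p = 5.43e-11. RECK, a membrane inhibitor of matrix metalloproteases, was at 3.79 to 5.91 FPKM (median 5.65) with the long-labelled siRNA, against 0.327 to 1.21 FPKM (median 0.694) with the control siRNA, a difference of 2.83 ± 0.19 (SE), adjusted p = 1.17e-09. In the short-labelled series they stood at 3.10 and 3.46 against the same controls. LCLAT1, which remodels cardiolipin, was at 3.29 to 9.7 FPKM (median 6.51) in the long-labelled series and 0.505 to 2.12 FPKM (median 0.97) in the control series, a difference of 2.48 ± 0.17 (SE), adjusted p = 1.93e-09, and stood at -0.50 in the short-labelled series. HIST1H4C, a member of the histone list, was higher by 2.92 ± 0.33 (SE), adjusted p = 8.1e-07. It is a histone H4 gene with near-identical copies and is uncertain for that reason. TIGD1, POLR3G, CEP135 and PDP2 were higher by 2.55, 2.65, 2.46 and 2.36, at no more than 5.91 FPKM in any of the 12 libraries, and the last 3 were listed at 0 in at least 1 control library.

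Some whole-series zeros have no fold. NME7 was at 8.64 to 13.9 FPKM (median 13) in the long-labelled libraries and listed at 0 in all control libraries, and it was listed at 0 in the short-labelled and both-labelled series as well. TTC7A and C18orf8 were listed at 0 in all long-labelled libraries, against 9.22 to 10.9 FPKM (median 10.8) and 8.41 to 9.69 FPKM (median 8.86) in the control libraries. C18orf8 was so in the short-labelled series too, and TTC7A was not. All 3 hold a doubtful transcript, and a failed estimate in 1 whole series was not tested for.

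Both series that had received the long-labelled siRNA, alone or with the other, were set beside both that had not. The long-labelled and both-labelled values lay above those of the control and short-labelled series at all 6 times for 173 genes (2.2%) and below them for 197 (2.51%). Their names were chosen after their values were seen, and the rule that found them fixes the sign of their differences from the control and from the short-labelled series, so these are given as descriptions with no p-value. KIAA1279, which binds kinesins, was at 2.48 to 3.82 FPKM (median 3.41) in the long-labelled libraries, against 17.8 to 23.4 FPKM (median 22) in the control libraries. It differed by -2.67 ± 0.08 (SE) from the control, with -2.21 in the both-labelled series, and by -2.14 from the short-labelled series. LGMN, the lysosomal protease legumain, was at 5.99 to 9.85 FPKM (median 7.71) with the long-labelled siRNA, against 29.6 to 46.4 FPKM (median 37.2) with the control siRNA, with differences of -2.20 ± 0.12 (SE) from the control, -1.86 in the both-labelled series and -2.24 from the short-labelled one. CD151, a tetraspanin that binds integrins, was at 43.9 to 52.5 FPKM (median 45.2) in the long-labelled series and 139.9 to 223 FPKM (median 180.5) in the control series, with differences of -1.87 ± 0.08 (SE), -1.60 and -1.53. None of these 3 genes overlapped between the series.

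LRG1, a secreted glycoprotein, PEX26, a peroxisomal membrane protein, USF1, a transcription factor, and JTB, a membrane protein, followed the same pattern. They stood at -3.19, -2.90, -2.11 and -1.48 in the long-labelled series and at -2.13, -1.81, -1.73 and -1.28 in the both-labelled series, against -0.18, 0.15, 0.79 and -0.28 in the short-labelled series, all relative to the same control libraries. PEX26, USF1 and CD151 hold a doubtful transcript. Higher in both were FAM136A, a mitochondrial protein, at 65.8 to 80.2 FPKM (median 70.2) in the long-labelled libraries, against 21.6 to 25.9 FPKM (median 24.9) in the control libraries, and MAT2A, which makes S-adenosylmethionine, at 246 to 350.2 FPKM (median 302) with the long-labelled siRNA, against 88.7 to 146 FPKM (median 102) with the control siRNA. They differed from the control by 1.59 ± 0.06 (SE) and by 1.52 ± 0.09 (SE), from the short-labelled series by 1.21 and 0.95, and stood at 1.02 and 1.15 in the both-labelled series. CREG1, a lysosomal glycoprotein, and FAM43A stood at 1.83 and 1.77 in the long-labelled series, at 1.11 and 1.41 in the both-labelled series and at 0.84 and 0.59 in the short-labelled series.

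Loss of RNA under actinomycin D was compared by slopes, the change of the centred log2 level per hour. A positive difference means that the long-labelled series lost the RNA more slowly than the control series, as measured against its median gene. It does not by itself set the long-labelled series apart from the short-labelled and both-labelled series. EIF4E2, CITED4, TAF7, GINS3, C1orf131 and SNW1, given below, were in FPKM also lost more slowly in those series than in the control. By 6 h TAF7 and SNW1 had kept a larger share of their 0 h value there than in the long-labelled series. HMOX1 and BACH1 went the other way and kept a smaller share there than in the control. Genes not named here are not thereby particular to the long-labelled series. In the fit over 24 libraries 144 genes were called (1.83%), 98 with a higher slope (1.25%) and 46 with a lower one (0.585%). These calls rest on the shared spread and on the last time point. With only the 12 libraries compared, no gene was called in limma (smallest adjusted p = 0.0787, with 920 genes at an unadjusted p under 0.05), and without the 6 h libraries 7 genes were called. Without the long-labelled library at 6 h 26 genes were called and without the control library at 6 h 50.

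The genes with a higher slope were mostly ones that the control series lost quickly. Of the 98, 97 had a control slope below 0, and the medians were -0.09 log2 units per h in the long-labelled and -0.24 in the control series. Of the 46 with a lower slope, 34 had a control slope above 0, and the medians were -0.11 log2 units per h in the long-labelled and 0.11 in the control series. Across all tested genes the median slopes were 0.04 in the long-labelled and 0.04 in the control series. The share of all tested genes with a control slope below 0 was not counted, so the counts of control slopes are descriptions. The control slope is subtracted in the difference, so choosing genes by a higher difference itself favours low control slopes. Choosing by a lower difference favours high control slopes in the same way. Level and slope were called together for 99 genes, of which 55 were higher in both and 29 lower in both. HMOX1 and BACH1 had higher slopes by 0.32 and 0.24 in the limma fit over 24 libraries (adjusted p = 0.0269 and 0.0342).

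CITED4, a transcriptional coactivator, had the smallest p. It was at 52.3 to 187 FPKM (median 118) in the long-labelled libraries, against 3.48 to 74.4 FPKM (median 42.6) in the control libraries, its slope was -0.28 in the long-labelled series, against -0.72 in the control series, and the difference was 0.43 ± 0.04 log2 units per h (SE), adjusted p = 0.000108. RHOB, a short-lived small GTPase, was at 15.3 to 158 FPKM (median 43.2) with the long-labelled siRNA, against 15.1 to 340.0 FPKM (median 89.3) with the control siRNA, with slopes of -0.48 in the long-labelled series, against -0.70 in the control series and a difference of 0.22 ± 0.03 log2 units per h (SE), adjusted p = 0.00198. Of the 20 genes named by the rule for slopes, these 2 alone were still called when any 1 library or time was left out, and neither was called in the fit of 12 libraries. CEBPD, an inflammatory transcription factor, CITED2, a coactivator, and CDC34, a ubiquitin-conjugating enzyme, had higher slopes by 0.22, 0.27 and 0.15, and the calls of all 3 were lost without the 6 h time (adjusted p = 0.0625, 0.0716 and 0.0699), that of CDC34 also without the long-labelled library at 6 h. C1orf131, EIF4E2, a cap-binding repressor of translation, GINS3, a replication factor, TAF7, of the general factor TFIID, and SNW1, a splicing factor, had higher slopes by 0.14, 0.14, 0.20, 0.12 and 0.11. Without the 6 h time their adjusted p were 0.147, 0.172, 0.138, 0.221 and 0.245, and without the long-labelled library at 6 h alone the calls were lost as well.

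Lower slopes were found for MRPL12, of the mitochondrial ribosome, LGMN, MTX3, a metaxin of the mitochondrial membrane, PITPNB, a phospholipid transfer protein, and TSPAN6, a tetraspanin, by -0.16, -0.20, -0.55, -0.13 and -0.35. EXOSC4 had a difference of -0.50 ± 0.07 log2 units per h (SE), adjusted p = 0.00284, which was -0.22 without the 6 h time (adjusted p = 0.112) and -0.25 without the long-labelled library at 6 h. CHPF2, a chondroitin-synthesising enzyme, LHFPL2, CD151 and DNAJB4, a heat shock co-chaperone, were lower, differing by -0.10, -0.24, -0.12 and -0.15. The value of LHFPL2 was -0.13 without the 6 h time (adjusted p = 0.412) and -0.16 without the control library at 6 h. All 10 lost their call without the 6 h time, MRPL12, LGMN, MTX3 and PITPNB with adjusted p of 0.113, 0.0767, 0.174 and 0.116. All but EXOSC4 and TSPAN6 also lost it without the long-labelled library at 6 h, and EXOSC4 without the control library at 6 h (adjusted p = 0.101).

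Of the 46 tested immediate-early genes 9 had a higher slope (1.25% of all tested genes) and 1, CTGF, a lower one. The 9 were MYC, RHOB, CYR61, ID3, KLF10, DUSP4, BHLHE40, IER5L and BTG2. BHLHE40, a circadian repressor, had slopes of -0.45 in the long-labelled series, against -0.67 in the control series, a difference of 0.22 ± 0.04 log2 units per h (SE), adjusted p = 0.0142. ID3, an inhibitor of basic helix-loop-helix factors, had slopes of -0.10 in the long-labelled series, against -0.36 in the control series, a difference of 0.26 ± 0.05 log2 units per h (SE), adjusted p = 0.0167. MYC had slopes of -0.34 in the long-labelled series, against -0.57 in the control series, a difference of 0.23 ± 0.05 log2 units per h (SE), adjusted p = 0.0234. Leaving out 1 library or time left between 1 and 8 of the list with a higher slope, and the fit of 12 libraries 0. Of the 19 deadenylation genes 3 had a higher slope, C2orf29, BTG2 and CNOT4, but 0 to 2 did when 1 library or time was left out, and 0 in the fit of 12 libraries. GINS3, KLF10 and CNOT4 hold a doubtful transcript.

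**Figure D5:**
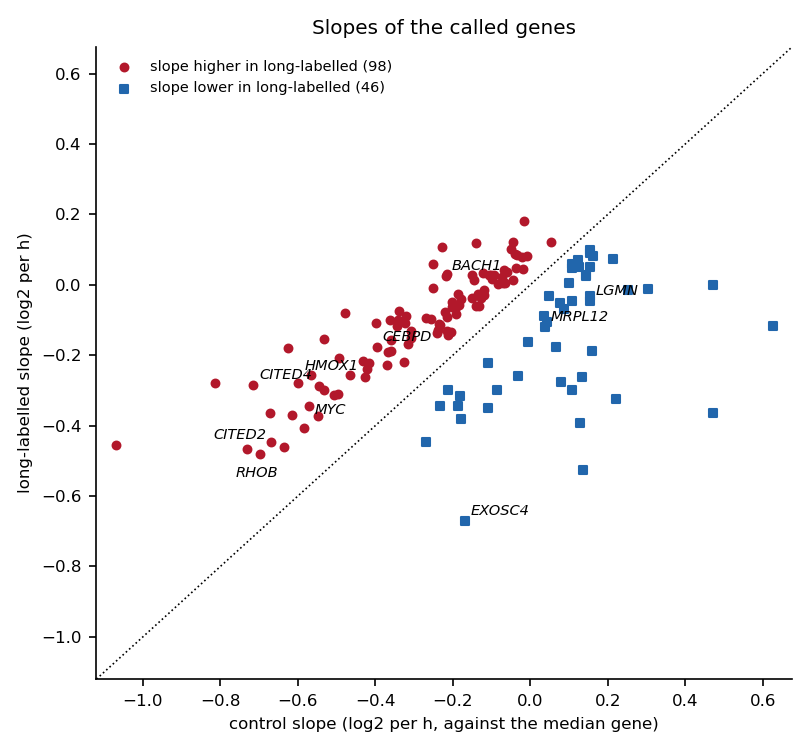
Slope in the long-labelled series (y axis) against slope in the control series (x axis), both in log2 units per h relative to the median gene, for the 98 genes with a higher slope (red circles) and the 46 with a lower slope (blue squares) in the long-labelled series, with a dotted line of equal slopes. The red points lie above the line and mostly left of 0, and CITED4, RHOB and MYC are among them.

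The core of the AU-rich element, TATTTAT, was sought in the 3′ UTRs of the annotated transcripts. It was in 20 of the 95 genes with a higher slope whose UTR was found (21.1%, median UTR length 651 bases), in 13 of 44 with a lower slope (29.5%, 1068.5 bases) and in 2476 of 7502 tested genes (33.0%, 1135 bases). Among genes called in level it was in 31.6% of those higher and 31.0% of those lower. These shares are descriptions, the UTR lengths differ beside them, and no test was made.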

How the data were processed

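Cytoplasmic RNA of U2OS cells was sequenced in 24 libraries, 1 for each of 4 siRNA series and 6 times, and 12 of them are compared here. Per the submitters' processing notes, TopHat 1.3.3 and the build hg19 were used. Deposited by the authors were FPKM values for 37382 RefSeq transcripts. The tool that made the FPKM is not given in the sources used here, so it is unknown how reads of near-identical copies were counted, and how deep each library was. FPKM were summed by gene symbol. A symbol was missing for 154 transcripts (0.0141% of the summed FPKM), which were left out.

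The mean over the 24 libraries reached 1 FPKM for 9898 genes. Of these, 464 with a dash in place of a value and 1574 with a 0 next in time to at least 1 FPKM in the same series were left out. The zero rule came from earlier results of these data. A transcript with such a 0 in the 12 libraries is called doubtful. So is one at 0 throughout the long-labelled or the control series with a mean of at least 1 FPKM in the other. Values were log2(FPKM + 0.1), centred on the median tested gene of each library. That centring moved long-labelled against control by -0.073 to -0.007 (log2).

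Level and slope fits were made in R 4.3.3 with limma 3.58.1, using a mean-variance trend, all 24 libraries, time as a factor and series; slopes added series by hours. Time pairs the libraries, since the same hour stands on both labels. P-values were adjusted by Benjamini-Hochberg over 7860 genes. For PAN3 an exact permutation test flipped the signs of the 6 paired differences. The fits were tested on simulated data.

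The rule named the 12 largest level differences in each direction among called genes on 1 side at all 6 times, the 10 smallest p in each direction for slopes, and up to 5 members of each of 32 lists, not all of which are reported here. Further genes were named after their values were seen, among them GCLM, IL11, the regulators and the genes lower or higher in both series with the long-labelled siRNA. The members and lists were chosen with earlier results of these data known. Alternatives were a pseudocount of 0.01 or 1, a minimum mean of 0.1 FPKM, of 5 FPKM or no minimum, no centring, quantile normalization, no trend, zeros kept, only 12 libraries, no replicate block, 0 to 4 h, and each library and time left out; fits with genes chosen on 12 libraries and without doubtful transcripts were chosen after seeing the data. Promoters are RefSeq's (GRCh38.p14) and UTRs those of GENCODE.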

Additional observations from a re-analysis of the deposited data

Results flagged for a closer look

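For each of the 202 genes of the text, the 6 paired differences between the long-labelled and the control series were checked for 1 time that stood apart from the others, by Dixon's criterion for 6 values. Chance gives such a value in about 1 of 20 genes, and 17 of the 202 had one. On the log2 scale the value that stood apart was, at 0 h, 0.799 for DUSP1, 0.381 for ACLY and -2.452 for PEX26. At 0.5 h it was -1.495 for ISG15, 0.617 for ISG20 and 0.25 for DIS3L2. At 1 h there were 6 of them: 0.761 for SCD, 0.222 for MRTO4, 2.761 for CDK6, 0.808 for WARS, -1.603 for FAS and 1.551 for PABPC4. At 2 h they were -1.026 for NR4A1, 1.313 for OAS3 and -5.385 for LDHD, whose long-labelled value then was a listed 0. At 6 h they were -4.277 for EXOSC4 and -1.315 for LHFPL2.

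Some genes stood on opposite sides of the control in the long-labelled and the short-labelled series at all 6 times in centred values, and their direct difference, long-labelled minus short-labelled, passed the limma test. Interferon genes were among them, with -2.69 for ISG15, -2.462 for OASL, -2.839 for IFIT2, -1.76 for IFIH1, -1.479 for IRF9, -1.667 for HERC5 and, with the other sign, 1.87 for OAS3. Targets of p53 gave -2.389 for CDKN1A, -1.786 for TP53I3, -1.529 for TNFRSF10A, -2.002 for ZMAT3 and -2.383 for FDXR. Antioxidant genes gave 1.109 for PGD, 1.215 for NQO1 and 1.034 for FTL, whose FPKM at 1 h lay below the control in both series. Genes of growth and translation gave 1.837 for MYC, 0.972 for EBNA1BP2, 0.836 for TARS and 0.564 for GARS. Signalling and adhesion genes gave 2.454 for IL6, -1.335 for ICAM1, -1.71 for PLAUR, -2.604 for ITGA6 and -1.361 for ACTA2. The rest were -1.331 for SC4MOL, -2.475 for EXOSC4, 1.734 for LSM6, 1.347 for MPHOSPH6, -2.194 for P4HA2, -2.234 for DNAJB9 and -2.895 for USF1. TTC7A gave -7.122, which is no fold because it was listed at 0 in all long-labelled libraries.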

How the results depend on the processing

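The 4023 level calls, 2128 higher and 1895 lower, stayed within 1.5 times under all alternatives but 1. Leaving out 1 library or time gave 3682 to 3950 calls, 1945 to 2087 higher and 1737 to 1871 lower. The exception was the fit with no replicate block, in which the pairing by time is dropped, with 2551 calls, 1369 higher and 1182 lower. The comparison with the short-labelled series gave 7861 calls with no filter on the mean, 5327 of them lower, against 5027 and 2488.

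Slopes depended on the fit. The 144 calls, 98 higher and 46 lower, became 0, 0 and 0 with only the 12 libraries compared, whichever way genes were chosen (920 and 949 genes at an unadjusted p under 0.05), 7, 5 and 2 from 0 to 4 h, and 54, 35 and 19 with no replicate block. With no filter on the mean they were 64 and 27 higher. Leaving out 1 library or time gave 7 to 152 calls, 5 to 88 higher and 2 to 80 lower. The cause was not tested.

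Of 251 genes checked by name 236 were called in level, of which 49 lost the call under at least 1 alternative and 7 with only 12 libraries, and none changed sign. All 20 named slopes lost their call with only 12 libraries. The mean difference of PAN3 stayed between -0.359 and 0.0338 FPKM when 1 time was left out, and no setting gave a call. Depth could not be recovered from the FPKM, so genes of few reads cannot be told from well measured ones by their error.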
